A study of Mus musculus with 9 samples.

Results

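The genes described here are 49 genes of DNA replication and mitosis, and the data are the places where the E proteins E2A and HEB were found on or beside them in mouse T cell precursors. The members were named by function, with earlier results of these data known when they were chosen. All 49 were matched among 21887 protein-coding genes of the reference table, and a member was counted for a list where at least 1 called peak touched the gene itself or the 10 kb flanking each end of it. The study used chromatin immunoprecipitation and sequencing with antibodies to E2A or HEB, each set against an input library of the same cells. There were 9 libraries, with 1 E2A, 1 HEB and 1 input library at each of 3 stages, and 6 peak lists. Libraries began as duplicates that the authors joined, so no value here has a replicate error, no test was possible and every comparison is a description of single lists.

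All cells were BALB/c, came from Rag2-deficient fetal liver and were cultured on OP9-DL1, a stromal line that carries a Notch ligand. Without Rag2 they cannot rearrange their own antigen receptor genes. All groups were fixed for 10 min in 1% formaldehyde. The DN3 group, of day 7, was isolated by flow cytometry, and its labels name no transduced receptor. For the CD73- and CD73+ groups, DN3 cells of culture day 7 were given the KN6 gamma-delta T cell receptor by overnight culture with vector-producing cells and sorted as YFP+ Thy1.2+ CD4- CD8- CD25+ CD44- cells. They were grown for 3 days more, fixed, and sorted by CD73 among Thy1+ YFP+ CD4- CD8- CD24+ cells. Per the labels, CD73- cells kept the potential for the alpha-beta lineage and CD73+ cells had lost it and joined the gamma-delta lineage. No cells cultured for the same time without the receptor are among the samples, so receptor, transduction, culture time and sorting cannot be told apart. The files hold no expression values, and the cell types were taken from the labels without a check on their markers.

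E2A and HEB are encoded by Tcf3 and Tcf12. These basic helix-loop-helix proteins pair up on E-box DNA, spelled CANNTG, and are blocked by Id proteins. In thymocytes they are known to act in the DN3 arrest and to restrain proliferation, while pre-TCR or gamma-delta receptor signals lift that restraint. Replication begins when the origin recognition complex, Cdc6 and Cdt1 load the Mcm helicase in G1, and it proceeds when Cdc45 and GINS activate that helicase in S phase. Cyclin and Cdk pairs drive each step, and the spindle checkpoint holds mitosis until chromosomes are attached.

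The lists held from 9407 to 23205 peaks on the 21 main chromosomes. Each peak carries the authors' score, which is -10 log10 of its p-value against input. The score is at least 50 and has meaning only beside other peaks of the same list. A score of at least 100 is called strong here, a level that from 7.02% to 40.6% of a list's peaks passed. Peaks of the DN3 lists were wider, with medians of 617 bp for E2A and 721 bp for HEB, against 149 bp to 181 bp in the other 4 lists. The CD73+ E2A list stood apart. It was the longest, and of its peaks in any gene window 18.6% overlapped a peak of another stage, against 33.4% to 57.0% in the other lists. Whether the antibody names of the CD73+ lists are exchanged was not settled here, so E2A and HEB in CD73+ cells mean the lists labelled so, and stage patterns were also counted with the names exchanged. Both antibodies of a stage were set against the same input library, so their values are given side by side and no share of overlap between them is given. A gene without a peak had none called at this depth, which is unknown here, and that does not show that the factor was absent.

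E2A peaks lay at 11 members in the DN3 list, 13 in the CD73- list and 9 in the CD73+ list. HEB peaks lay at 8, 9 and 9 members at these stages. In DN3 cells the E2A share was 22.4% of members, against 26.2% of all protein-coding genes, and the HEB share was 16.3%, against 24.3%. In CD73- cells the E2A share was 26.5%, against 17.6% of all genes, and the HEB share was 18.4%, against 17.1%. In CD73+ cells both shares were 18.4%, against 23.7% for E2A and 20.2% for HEB. Against these unweighted shares the members were close to the background or below it in 5 lists and above it in the CD73- E2A list. Members were somewhat shorter than other genes, with a median span of 14816 bp against 17169 bp. With all genes weighted to the members' span classes, the CD73- E2A background was 13.6% and that of the other lists was from 14.0% to 24.0%. The 14.0% was that of CD73- HEB, where the members' 18.4% was then also above the background. In the CD73+ lists the weighted background was 18.4% for E2A and 17.3% for HEB, equal or close to the members' share.

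Strong peaks were few. At the DN3 stage 5 members had a strong E2A peak (13.4% of all genes did) and 2 a strong HEB peak (10.5%). At the CD73- stage these were 3 members (3.06% of all genes) and 1 (4.08%), and at the CD73+ stage 1 (4.00%) and 3 (7.43%). As shares of the members, the counts in the order DN3, CD73- and CD73+ were 10.2%, 6.12% and 2.04% for E2A and 4.08%, 2.04% and 6.12% for HEB. In the CD73- E2A list, whose share of members was above the background, 10 of the 13 members had only a peak scoring under 100. Of all 3852 genes with a peak in that list, 669 had a strong one. The median of the highest scores there was 72.3 for members with a peak and 62.1 for all genes with one. Of the 13 member peaks in that list 3 overlapped a peak of another stage, against 35.5% of its peaks in any gene window, and the median width of the 13 was 136 bp. With gene spans alone, 6 members had a CD73- E2A peak, against 11.0% of all genes, and 8 did when a peak was given to the nearest gene alone, 16.3% against 15.3% of all genes. With only peaks met in another stage there were 3, 6.12% against 7.55%, so under that rule the members were not above the background in this list. Other rules kept the margin. A 5 kb window gave 22.4% against 14.0% of all genes, and equal list length gave 22.4% against 14.7%. With a 50 kb window 24 members had a peak, against 41.3% of all genes. The 1000 highest peaks, a rule added after seeing the data, gave 3 members, 6.12% against 2.87%.

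**Figure D1:**
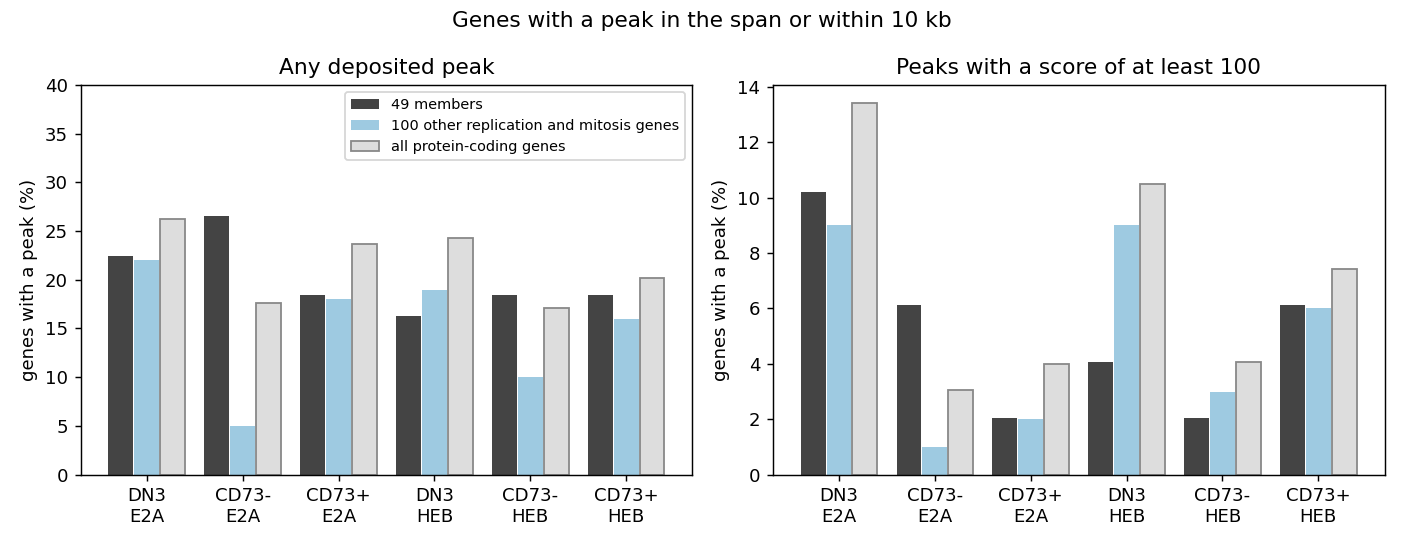
Percentage of genes with a peak in the span or within 10 kb (vertical axis) in each of the 6 peak lists (horizontal axis), for the 49 members, 100 other replication and mitosis genes and all protein-coding genes, with all peaks on the left and peaks scoring at least 100 on the right. With all peaks, the members exceed all genes by the widest margin in the CD73- E2A list, 26.5% against 17.6%.

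Across the 6 lists, 30 of the 49 members had a peak somewhere and 19 had none, 38.8%, against 45.5% of all genes with none. A peak in exactly 1 list was found at 16 members, 32.7%, against 22.4% of all genes. At 10 members, 20.4%, peaks came from 3 or more lists (19.9% of all genes), and at 2, 4.08%, from 5 or more (6.91%), namely Mcm2 and Ccne1. A strong peak in any list was found at 7 members, 14.3%, against 19.2% of all genes. Weighted to the members' span classes, the shares of all genes were 48.8% for no list and 24.1% for exactly 1 list. They were 15.4% for 3 or more lists, 4.62% for 5 or more and 16.9% for a strong peak in any list. Together the members had 69 peaks, of which 16 were strong, and 9 of the 16 lay in Mcm2 and Ccne1. Of the 16 strong peaks 12 overlapped a peak of another stage, against 73.0% of all strong peaks in gene windows with the 6 lists weighted as the member peaks are. Of the 53 weaker ones 12 did, against 26.4% of all weaker peaks weighted likewise. The member peaks were thus close to all peaks of like score.

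Mcm2, a subunit of the replicative helicase, held the highest member peak in 4 of the 6 lists. In the CD73+ HEB list Ccne1 scored higher, and in the CD73+ E2A list Pola1 was highest and Mcm2 had no peak. The Mcm2 peaks lay at chromosome 6 in build mm10, within the gene span of 88883474 to 88898780 on the minus strand. The DN3 E2A peak, at 88886039 to 88887640, scored 3087 and ranked 31 of 12357 peaks. By highest peak, Mcm2 stood in place 20 of all genes in that list. CD73- cells had an E2A peak of 489 at 88886368 to 88886909, ranked 97 of 12434, and CD73+ cells had no E2A peak in the window. The DN3 HEB peak, at 88886054 to 88887361, scored 1773 and ranked 36 of 11619. CD73- cells had a HEB peak of 506 at 88886366 to 88886868, and CD73+ cells had one of 337 at 88886431 to 88886817, ranked 570 of 10194. These 5 peaks lay over one another, so the site was met in every list but CD73+ E2A. A further DN3 HEB peak of 50.7 lay beside it. The site lay deep in the gene, 11140 bp downstream of the start by the near edge of the DN3 E2A peak, and no other protein-coding gene span lay under it.

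Ccne1, which encodes cyclin E1, the partner of Cdk2 at entry into S phase, had the other site met in 5 lists. Its span is chromosome 7, 38097984 to 38107490, on the minus strand. E2A peaks scored 501 in DN3 cells, at 38103980 to 38104877, and 339 in CD73- cells, at 38104154 to 38104551, and CD73+ cells had none. HEB peaks scored 218 in DN3 cells, at 38103803 to 38104960, and 495 in CD73+ cells, at 38104119 to 38104624. In CD73- cells the HEB list held adjoining peaks of 82.3 and 66.8 at the same place. The DN3 E2A peak ranked 796 in its list, the CD73- E2A peak ranked 175 and the CD73+ HEB peak ranked 293. This site lay within the gene, 2530 bp from its start at the nearest. A separate DN3 E2A peak of 61.3 lay 5932 bp from the start.

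At both genes the CD73+ peak was in the HEB list alone. With these lists exchanged, E2A would have peaks at all 3 stages at 3 members in place of 1, and HEB at 1 in place of 2. No share of all genes under the exchange stands beside these counts.

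**Figure D2:**
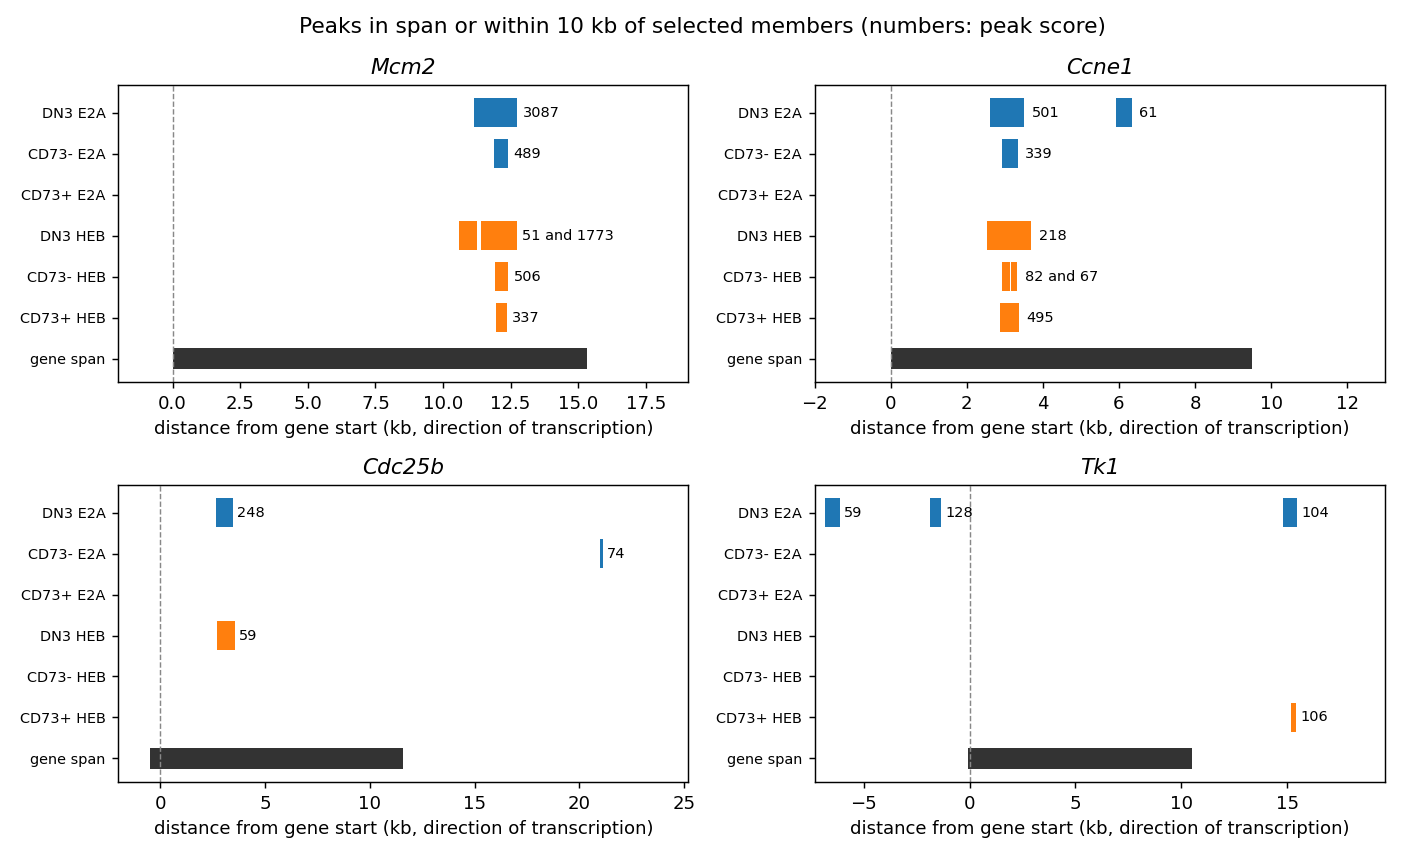
Position of each peak in kb from the gene start in the direction of transcription (horizontal axis) in the 6 lists (rows; E2A blue, HEB orange; the black bar is the gene span) for Mcm2, Ccne1, Cdc25b and Tk1, with the authors' peak score beside each peak. At Mcm2 and Ccne1 the peaks of 5 lists lie over one place inside the gene, and the CD73+ E2A row is empty in each of the 4 genes.

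Peaks in any list lay at 54.5% of all genes, beside which the counts of the role groups stand. Of the 16 genes of origin licensing and the helicase, 8 had a peak in any list, and strong peaks stood at Mcm2 and Cdc45. Cdc45, which travels with the helicase, had the highest number of lists after Mcm2 and Ccne1, namely 4. Its E2A peaks scored 78.2 (DN3), 111 (CD73-) and 65.4 (CD73+), and its DN3 HEB peak scored 61.6. The E2A peaks lay at 3 separate places, of which the CD73+ one lay over the DN3 HEB peak, and the strong one, at chromosome 16, 18813543 to 18813657, lay 1571 bp upstream of Cdc45 inside the span of Ufd1. Mcm4 had HEB peaks of 92.1 in DN3 cells and 87.8 in CD73- cells over one place, and an E2A peak of 56.7 in CD73+ cells. All of these lay 4598 bp or more outside Mcm4, within Prkdc, the catalytic subunit gene of DNA-dependent protein kinase. Cdc6, an origin loading factor, had HEB peaks of 51.2 in DN3 cells, inside the neighbouring gene Rara, and 65.2 in CD73- cells. Orc1, Orc2 and Gins2 had single E2A peaks of 58.6, 55.8 and 58.8, and Gmnn, the inhibitor of Cdt1, had a CD73+ HEB peak of 69.9. Orc1 and Gins2 peaks were of DN3 cells, and the Orc2 peak was of CD73+ cells. No list had a peak at Mcm3, Mcm5, Mcm6, Mcm7, Mcm10, Cdt1, Orc6 or Gins1. No gene of the Mcm ring other than Mcm2 had a peak within its own span.

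Of the 8 fork genes, 7 had a peak in any list, and Rfc4 had none. Pold1, the catalytic subunit of polymerase delta, had 4 E2A peaks in DN3 cells, scoring 117, 88.6, 87.9 and 76.4. The strong one, at chromosome 7, 44527814 to 44528631, lay 4113 bp beyond the 3' end of Pold1 within Spib, an ETS factor gene, as did that of 76.4. DN3 HEB peaks scored 72.4 inside Pold1 and 62.1 inside Spib, and a CD73- HEB peak of 59.1 lay in Spib. Pola1, the catalytic subunit of polymerase alpha, is the longest member at 327622 bp. Its CD73+ E2A peak of 163, at chromosome X, 93581952 to 93582020, was 69 bp wide, and its DN3 E2A peak of 84.5 and CD73- HEB peak of 52.3 lay elsewhere in the gene. Prim1, the small primase subunit, had overlapping peaks of 64.4 for DN3 E2A and 63.2 for CD73+ HEB, both within Hsd17b6. It also had a CD73- E2A peak of 72.3 closer to Naca. Pole, the catalytic subunit of polymerase epsilon, had a CD73- E2A peak of 88.6 within its span. Rfc3, of the clamp loader, had CD73+ E2A peaks of 82.7 and 66.6 on either side of it. Pcna, the sliding clamp, and Rfc1, the large clamp loader subunit, had CD73+ HEB peaks of 70.1 and 65.3 close to their starts.

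Among the 4 genes of nucleotide supply, Tk1 and Tyms had peaks, and Rrm1 and Rrm2, the ribonucleotide reductase subunits, had none. Tk1, which encodes thymidine kinase 1, had E2A peaks in the DN3 list alone, with scores of 128.5, 104 and 59.1. The peak of 128.5, at chromosome 11, 117827368 to 117827874, lay 1354 bp upstream of the start, inside the span of Afmid. The peak of 104 lay on the other side, inside Syngr2, and a CD73+ HEB peak of 106 at 117810584 to 117810840 lay over it. Tyms, the thymidylate synthase gene, had a CD73+ E2A peak of 58.2.

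Of the 9 cyclin, Cdk and Cdc25 genes, 8 had a peak in any list, and Ccnb2 had none. Cdc25b, a phosphatase that activates Cdks, had a DN3 E2A peak of 248 and a DN3 HEB peak of 59.5 over one place within the gene. The E2A peak, at chromosome 2, 131189609 to 131190422, lay 2661 bp downstream of the start. No CD73- or CD73+ peak lay there, and the CD73- E2A peak of 74.2 lay 9425 bp beyond the gene and closer to Ap5s1. Cdc25a, the phosphatase that acts at S phase entry, had peaks of 86.2 for CD73- E2A, 99.2 for CD73+ E2A and 72.6 for CD73- HEB. These lay over one place, 5409 bp downstream of the gene at the nearest, and were 63 bp, 80 bp and 224 bp wide. Of all members, Cdc25a alone had E2A peaks of CD73- and CD73+ cells at 1 place. Ccnb1, the mitotic cyclin B1 gene, had E2A peaks of 71.3 in DN3 cells and 66.3 in CD73- cells at separate places upstream. Cdk1, the mitotic kinase, had a DN3 HEB peak of 52.8, 1381 bp upstream. Cdk2 had a CD73+ HEB peak of 52.8 inside Rab5b, Ccne2 a CD73+ E2A peak of 62.8 inside Ints8, and Ccna2 a CD73- E2A peak of 50.8 inside Bbs7.

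The 12 mitotic genes had no DN3 peak in either list, where 26.2% of all genes had an E2A peak and 24.3% a HEB peak. None had a strong peak in any list, where 19.2% of all genes had one, and 5 had a peak in any list. In CD73- cells E2A peaks lay at Bub1 (53.4), Ttk (64.2), Top2a (57.2) and Aurka (51.0), and HEB peaks lay at Bub1 (55.0) and Cdc20 (52.9). Bub1 and Ttk are checkpoint kinases, Top2a encodes topoisomerase II alpha, Aurka is a spindle pole kinase and Cdc20 activates the anaphase-promoting complex. In CD73+ cells an E2A peak of 62.4 lay at Bub1 and a HEB peak of 55.8 at Ttk. The Aurka peak lay 4312 bp outside the gene, within Fam210b. The CD73- HEB and CD73+ E2A peaks of Bub1 lay 3950 bp and 5394 bp outside it and closer to Mtln, and the Cdc20 peak lay 1606 bp upstream of Cdc20. No 2 peaks at 1 of these genes overlapped, so no site was met more than once. No list had a peak at Plk1, Aurkb, Bub1b, Mad2l1, Mki67, Birc5 or Kif11. The absence of DN3 peaks holds for these 12 genes and not for mitotic genes in general. Ccnb1 and Cdk1, counted with the cyclins and Cdks, had DN3 peaks of 71.3 for E2A and 52.8 for HEB. Mad1l1, of the other mitosis genes described below, had strong DN3 peaks of both factors.

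**Figure D3:**
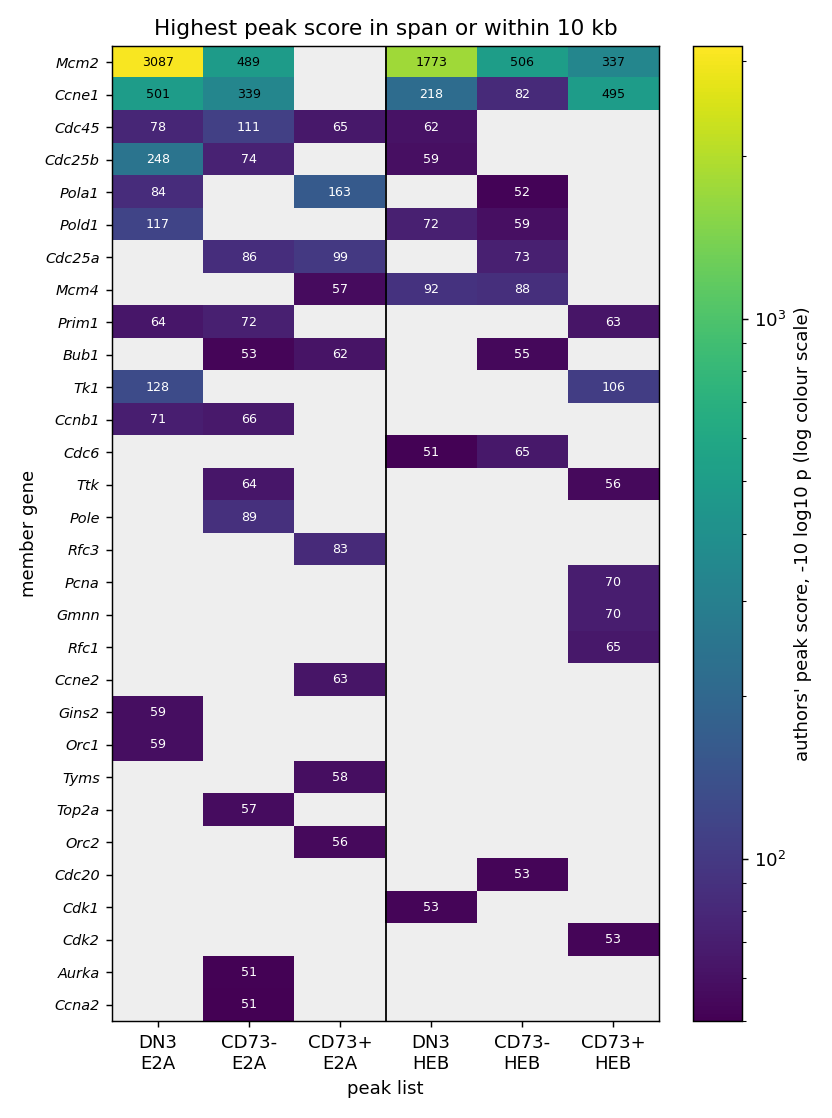
Highest peak score (colour, log scale, and printed number; the authors' -10 log10 of the p-value) in the span or within 10 kb of the 30 members with a peak, by member (rows) and peak list (columns), with no called peak in grey. Mcm2 and Ccne1 have peaks in 5 of the 6 columns, and 16 members have a peak in a single column.

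By stage, E2A peaks stood at all 3 stages at 1 member, Cdc45 (2.04%, against 5.55% of all genes). They stood in DN3 cells alone at 4 members, Tk1, Orc1, Pold1 and Gins2 (8.16%, against 13.3%). At 12 members, 24.5%, they stood in CD73- or CD73+ cells and not in DN3 cells, against 18.7% of all genes. HEB peaks stood at all 3 stages at 2 members, Mcm2 and Ccne1 (4.08%, against 7.37%), and in DN3 cells alone at 3, Cdk1, Cdc45 and Cdc25b (6.12%, against 9.38%). At 11 members, 22.4%, HEB peaks stood in CD73- or CD73+ cells and not in DN3 cells, against 13.0%. Each of these later peaks of either factor scored under 100 except the CD73+ HEB peak at Tk1. Weighted to the members' span classes, the E2A shares of all genes for these 3 patterns, in the order given, were 3.42%, 14.6% and 16.4%. The HEB shares were 5.55%, 9.44% and 12.0%.

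Of the 11 members with a DN3 E2A peak, 6 also had an E2A peak at the CD73- stage, against 33.8% of all genes with a DN3 E2A peak. At the CD73+ stage 2 did, against 36.6%. Of the 8 members with a DN3 HEB peak, 5 also had a CD73- HEB peak, against 41.5% of all such genes, and 2 a CD73+ HEB peak, against 50.3%. A peak in the same gene was often not at the same place. When the peaks of a factor were merged where they touched, the members held 37 E2A sites. Of these 15, 40.5%, were met in DN3 cells alone, against 35.9% of the E2A sites in all gene windows, and 20, 54.1%, in CD73- or CD73+ cells but not DN3, against 58.2%. A further 2, those of Mcm2 and Ccne1, were met in DN3 and 1 later stage, CD73-, 5.41% against 3.74%, and 0 at all 3 stages, against 2.19%. HEB sites numbered 23, of which 7, 30.4%, were met in DN3 cells alone, against 35.5% of all HEB sites, and 13, 56.5%, in CD73- or CD73+ cells but not DN3, against 45.0%. The site at Mcm4 was met in DN3 and CD73- cells, 4.35% for DN3 and 1 later stage against 11.4%, and 2 sites at all 3 stages, again Mcm2 and Ccne1, 8.70% against 8.04%. Of the 9 members with E2A peaks at more than 1 stage, 6 shared no E2A site between stages, against 57.2% of all such genes. These were Cdc45, Ccnb1, Cdc25b, Prim1, Pola1 and Bub1. Of the 5 members with HEB peaks at more than 1 stage, 2, Cdc6 and Pold1, shared no HEB site, against 30.1% of all such genes.

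Peaks overlapped the gene span itself at 17 members, 34.7%, against 34.8% of all genes, or 29.1% with all genes weighted to the members' span classes. Of the 69 member peaks 35 lay in the span and 34 outside it, and 19 of those outside lay within the span of another protein-coding gene. The reference table gives spans but no exons or introns, so these were not told apart. Start sites were taken for the 41 members with a RefSeq promoter entry in build GRCm38.p6. Mcm4, Gmnn, Gins1, Gins2, Pole, Ccna2, Ccne2 and Aurkb had none. A peak over the 300 bases from 250 before to 50 after the start was found at 1 of the 41, Ttk, against 5.44% of all genes with an entry. Within 1 kb of the start there were 3 of the 41, Ttk, Pcna and Rfc1 (9.36% of all genes in any list), each with a CD73+ HEB peak and no peak of another list there. In the CD73+ HEB list alone, 3.63% of all genes with an entry had a peak within 1 kb, and 2.05% had one over the 300 bases.

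The promoters of these 3 genes are shown because a peak lies on or beside them, and those of Mcm2 and Ccne1 because these genes held the most lists while their promoters held no peak. Sequences are those of RefSeq, run 5' to 3' from 250 bases before the start to 50 after it, and have CANNTG in capitals.
Ttk, chr9:83834439-83834738, plus strand: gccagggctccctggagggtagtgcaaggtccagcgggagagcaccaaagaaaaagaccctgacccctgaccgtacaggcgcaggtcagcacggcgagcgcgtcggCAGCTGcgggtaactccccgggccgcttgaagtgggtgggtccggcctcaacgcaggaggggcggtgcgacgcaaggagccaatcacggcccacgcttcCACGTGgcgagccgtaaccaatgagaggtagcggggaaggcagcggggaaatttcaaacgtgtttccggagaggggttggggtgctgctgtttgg
Pcna, chr2:132253131-132253430, minus strand: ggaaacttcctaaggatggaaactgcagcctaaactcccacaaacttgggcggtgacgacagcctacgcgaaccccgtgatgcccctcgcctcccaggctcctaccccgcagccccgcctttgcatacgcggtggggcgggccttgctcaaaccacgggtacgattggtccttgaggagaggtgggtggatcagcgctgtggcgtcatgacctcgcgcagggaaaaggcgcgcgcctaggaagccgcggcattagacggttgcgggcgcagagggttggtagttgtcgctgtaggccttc
Rfc1, chr5:65335590-65335889, minus strand: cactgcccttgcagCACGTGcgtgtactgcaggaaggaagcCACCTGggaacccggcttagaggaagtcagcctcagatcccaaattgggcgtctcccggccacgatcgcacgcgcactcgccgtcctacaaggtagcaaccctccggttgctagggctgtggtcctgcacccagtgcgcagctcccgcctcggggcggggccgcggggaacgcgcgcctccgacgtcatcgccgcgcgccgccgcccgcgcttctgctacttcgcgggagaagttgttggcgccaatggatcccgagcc
Mcm2, chr6:88898731-88899030, minus strand: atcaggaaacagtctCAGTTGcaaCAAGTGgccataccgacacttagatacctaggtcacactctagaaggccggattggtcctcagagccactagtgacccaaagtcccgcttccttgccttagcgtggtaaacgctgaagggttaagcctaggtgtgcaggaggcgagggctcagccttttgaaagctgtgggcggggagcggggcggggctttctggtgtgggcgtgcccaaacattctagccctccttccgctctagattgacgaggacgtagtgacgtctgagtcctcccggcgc
Ccne1, chr7:38107441-38107740, minus strand: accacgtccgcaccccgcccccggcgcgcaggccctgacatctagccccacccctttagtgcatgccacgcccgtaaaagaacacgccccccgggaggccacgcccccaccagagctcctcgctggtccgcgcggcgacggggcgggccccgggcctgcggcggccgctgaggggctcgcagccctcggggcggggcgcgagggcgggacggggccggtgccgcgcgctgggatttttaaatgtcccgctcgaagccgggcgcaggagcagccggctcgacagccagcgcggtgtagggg
The CD73+ HEB peak of Ttk, at 83834409 to 83834610, covers its CAGCTG, which begins 144 bases before the start, and ends before its CACGTG. The peaks of Pcna and Rfc1 begin 112 bp and 202 bp downstream of the start, beyond these windows, and Pcna has no CANNTG in its window. Mcm2 has CAGTTG and CAAGTG, and Ccne1 has no CANNTG. A match is a description and not a binding site.

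CANNTG, read on both strands, was held by 28 of 43 member promoter entries, 65.1%, against 69.0% of 21263 entries of all protein-coding genes. CAGCTG was held by 18.6% of member entries, against 15.6%, and CAGGTG or its reverse complement CACCTG by 9.30%, against 19.7%. These forms lie within CANNTG. Letters known from cell cycle promoters were more frequent. CCAAT, the letters of the factor NF-Y, was held by 34 of 43 member entries, 79.1%, against 38.2% of all. GCGGGAA, of the E2F type, was held by 12, 27.9%, against 5.95%, and TTTGAA, the cell cycle genes homology region or CHR, by 12, 27.9%, against 16.0%. Entries of Mcm7 and Orc2 were counted 2 times, as each has a pair of starts.

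**Figure D4:**
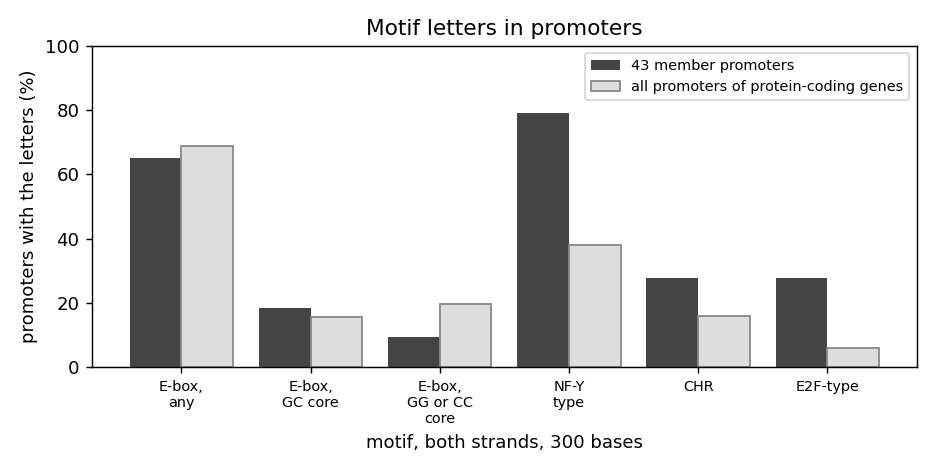
Percentage of promoter entries of 300 bases (vertical axis) that hold each motif on either strand (horizontal axis), for 43 entries of the members and for all entries of protein-coding genes. E-box letters of any form are about as frequent in members, 65.1%, as in all entries, 69.0%, while NF-Y and E2F-type letters are more frequent in members.

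The other genes of the pathway were 100 further replication and mitosis genes. In the order DN3, CD73- and CD73+, 22, 5 and 18 of them had an E2A peak and 19, 10 and 16 a HEB peak. All 6 counts were below the background share of all genes given above, and the CD73- E2A count, 5.00%, was so where that of the members was above it. Strong peaks lay at 17 of the 100, against 19.2% of all genes. Those scoring at least 300 lay at 3 genes. Mad1l1, a spindle checkpoint gene, had peaks in every list, with highest E2A scores of 1206, 86.6 and 64.7 and highest HEB scores of 379, 63.0 and 213 in the same order. For each factor these highest peaks lay at a different place at each stage, but stages did share places at Mad1l1. Over the highest CD73- peaks lay DN3 peaks of 1004 for E2A and 325 for HEB and a CD73+ HEB peak of 156. The highest CD73+ HEB peak lay over a DN3 HEB peak of 342, and the highest DN3 E2A peak over a CD73- E2A peak of 52.2. Uhrf1, which couples DNA methylation to replication, also had peaks in every list, with E2A scores of 921, 127 and 55.9 and HEB scores of 384, 120.1 and 341. These peaks lay over one place 9183 bp to 9750 bp upstream of Uhrf1 and closer to Arrdc5, and that of DN3 E2A reached into Arrdc5. Orc5, of the origin recognition complex, had a DN3 E2A peak of 155 and highest HEB peaks of 387, 101 and 64.2. These HEB peaks lay at separate places, and at the place of the DN3 one CD73- cells had a HEB peak of 63.05 and CD73+ cells had none.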

How the data were processed

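The submitters' processing notes name mm10 as the build and list MACS 1.4.2, Bowtie and HOMER, and per the labels' protocols duplicates were joined into 1 file. The 6 files used are peak lists without read depth, and the deposited score of a peak equals -10 log10 of its p-value as the authors called it. Scores rank peaks within a list only. A score of 100 is passed by from 7.02% to 40.6% of a list's peaks, so counts of strong peaks stand beside the same count over all genes or peaks of the same lists. The lists were matched to groups by the cell and antibody they name, with 0 unmatched. Only the 21 main chromosomes were kept, and positions count from 1.

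Gene spans and promoters came from RefSeq tables of GRCm38.p6, the assembly of mm10. A gene was called with a peak of any width in its span or within 10 kb. Member counts stand beside those of all 21887 protein-coding genes, also weighted over 10 span classes. No p-value was computed, since each group is 1 pooled list. The gene search was tested on simulated peaks.

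The members, gene lists, roles and rules were chosen with earlier results of these data known, and the promoter letters other than E-boxes after these files were examined. All members could be named. Of the other pathway genes, those scoring at least 300 were named. Alternatives were strong peaks, windows of 0, 5 and 50 kb, nearest gene, equal list length, no wide peaks, peaks met in another stage and exchanged CD73+ lists. The 1000 highest peaks were added after seeing the data. No mm10 genome sequence was used, so peak sequences are not shown. Software was matplotlib 3.10.9, scipy 1.17.1, pandas 2.3.3, numpy 2.4.6 and Python 3.11.15.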

Additional observations from a re-analysis of the deposited data

How the results depend on the processing

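Counts of members with a peak are given for E2A and then HEB, each in DN3, CD73- and CD73+ cells. They were 11, 13, 9, 8, 9 and 9. With strong peaks alone they were 5, 3, 1, 2, 1 and 3. With a window of 50 kb they were 25, 24, 23, 24, 21 and 22, against 37.9% to 53.0% of all genes. With peaks met in another stage they were 5, 3, 2, 4, 5 and 4, against 11.5%, 7.55%, 6.67%, 12.2%, 9.03% and 12.0% of all genes. The CD73- E2A share of members, 6.12%, was then below the background. Under each other rule of this paragraph the CD73- E2A share of members was above that of all genes. With the 1000 highest peaks, chosen after seeing the data, they were 2, 3, 1, 1, 1 and 2, against 2.73% to 3.61%. With gene spans alone the DN3 E2A count, 8, was within 1.5 times, and the others were 6, 4, 5, 4 and 4. In the same order the shares of all genes were 17.4%, 11.0%, 14.4%, 16.0%, 10.7% and 12.8%. The nearest gene rule gave 8 for CD73- E2A, against 15.3% of all genes, and equal list length gave 4 for CD73+ E2A, against 14.1%. Other counts under these rules, and all counts with a 5 kb window or without peaks wider than 3000 bp, were within 1.5 times. What these shifts follow from was not tested.

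With the CD73+ lists exchanged, members with peaks at all 3 stages numbered 3 for E2A, against 1, and 1 for HEB, against 2. Those with CD73- or CD73+ but no DN3 peak then numbered 11 for E2A, against 12, and 8 for HEB, against 11. Those with DN3 peaks alone remained 4 for E2A and were 2 for HEB, against 3. With strong peaks alone, members with peaks at all 3 stages numbered 0 for E2A and 1 for HEB. Under that rule those with CD73- or CD73+ but no DN3 peak numbered 2 for E2A and 1 for HEB, and those with DN3 HEB peaks alone 0. No share of all genes stands beside these stage counts or those with the lists exchanged. Site counts were within 1.5 times with midpoints within 200 bp or 50% of the narrower peak. Peaks within 1 kb of a start lay at 3 members, against 1 over the start window. The palindrome CAGCTG or the form CAGGTG, read on both strands, was held by 12 member promoters, where CANNTG was held by 28. The 12 were 27.9% of member entries, against 31.9% of all entries. Weighted to member spans, the shares of all genes with a peak were 24.0%, 13.6% and 18.4% for E2A and 21.9%, 14.0% and 17.3% for HEB, so that the CD73+ E2A share then equals that of members and the CD73+ HEB share lies just below it. No paired analysis was possible because each group is 1 library with its duplicates pooled. Depth is unknown, so peaks too weak to be called in a list cannot be told from absent ones, and a share of 49 genes moves by 2.04 percentage points with 1 gene.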
